A study of Mus musculus with 2 samples.

Results

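The C1q-high macrophages of the postischemic mouse kidney that carried Mrc1 or Ccl8 transcripts were 3101 of the 17701 barcodes kept from 2 single-cell RNA-seq libraries. They were 1485 of 8468 barcodes in the Cre- library and 1616 of 9233 in the PHDTiEC library. Members were selected on the measured transcripts named next, so the genes of the rule describe it and are no result. A member had at least 30 UMIs of C1qa, C1qb and C1qc together per 10000 UMIs, where a UMI marks 1 captured transcript molecule, and at least 1 UMI of Mrc1 or Ccl8. It also had fewer than 3 UMIs of Gpnmb, Arg1 and Mmp12 together per 10000, which sets aside the injury-associated macrophages, and fewer than 4 UMIs of the cell cycle genes Mki67 and Top2a. Each step is a cut through a continuous range.

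Injured kidneys were taken on day 14 after unilateral ischemia-reperfusion injury, dissociated and run as 1 10x Chromium library per genotype. PHDTiEC mice carry Cdh5-CreERT2, a tamoxifen-inducible Cre driven by the endothelial Cdh5 promoter, and floxed alleles of all 3 HIF prolyl hydroxylases (Phd1f/f, Phd2f/f and Phd3f/f), and the control library is labelled only Cre-. By the study's methods, mice were 8 to 10 weeks of age at surgery, the clamp lasted 25 min in males, and tamoxifen was given after injury as 4 injections of 3 mg per mouse to both genotypes. Macrophages are not the cells in which this Cre is driven, so differences between their transcripts in the 2 libraries are differences in cells outside the targeted lineage. With 1 library per genotype there is no spread between replicates, no test could be run, and genotype, animal and library cannot be told apart. The 95% intervals given here are exact binomial intervals that cover counting error only.

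C1q is the recognition component of the classical complement pathway, and tissue macrophages are a main source of its 3 chains. Macrophages with high C1q are found in the healthy and the injured kidney, where they clear dying cells, present antigen on MHC class II and secrete chemokines. Mrc1 encodes the mannose receptor CD206, and Ccl8, Ccl12 and Ccl7 encode chemokines that draw monocytes and lymphocytes.

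Promoter sequence is shown for 2 genes that define the class and 2 genes of MHC class II, the gene list with the lowest median ratio between the libraries. Sequences are RefSeq windows of GRCm38.p6, from 250 bases before to 50 bases after the transcription start. The first pair encodes the B and C chains of C1q, on the minus strand of chromosome 4. The window of C1qb is chr4:136886151-136886450 and that of C1qc is chr4:136892865-136893164. Capitals mark AGGAAGT, read on the other strand as ACTTCCT, the core of ETS factor motifs of the PU.1 type.
C1qb: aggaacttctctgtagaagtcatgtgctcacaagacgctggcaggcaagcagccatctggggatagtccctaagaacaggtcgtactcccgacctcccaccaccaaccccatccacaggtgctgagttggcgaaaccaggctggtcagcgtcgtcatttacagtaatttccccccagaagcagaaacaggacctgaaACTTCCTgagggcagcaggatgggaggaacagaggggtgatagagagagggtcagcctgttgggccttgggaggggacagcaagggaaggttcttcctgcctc
C1qc: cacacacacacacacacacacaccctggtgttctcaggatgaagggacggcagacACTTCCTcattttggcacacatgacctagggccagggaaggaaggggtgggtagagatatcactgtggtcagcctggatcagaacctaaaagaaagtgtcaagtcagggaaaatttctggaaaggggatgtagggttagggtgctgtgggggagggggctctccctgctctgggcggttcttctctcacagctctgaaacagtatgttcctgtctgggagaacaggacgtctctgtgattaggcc
The motif begins 53 bases before the start of C1qb and 195 bases before that of C1qc. It was present on either strand in 3072 of 32851 mouse promoter windows (9.35%) and in 5 of the 6 windows of marker genes looked at, those of C1qb, C1qc, Mrc1, Ccl12 and Fcrls but not that of Ccl8. No window was available for C1qa, and the marker gene Adgre1 was not looked at.

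The second pair encodes the alpha chain of I-A and the beta chain of I-E, the class II molecules that show peptides to CD4 T cells. H2-Aa lies on the minus strand with the window chr17:34287774-34288073, and H2-Eb1 on the plus strand with the window chr17:34305617-34305916. Capitals mark GATTGG or its reverse complement CCAATC, the Y box core of class II promoters.
H2-Aa: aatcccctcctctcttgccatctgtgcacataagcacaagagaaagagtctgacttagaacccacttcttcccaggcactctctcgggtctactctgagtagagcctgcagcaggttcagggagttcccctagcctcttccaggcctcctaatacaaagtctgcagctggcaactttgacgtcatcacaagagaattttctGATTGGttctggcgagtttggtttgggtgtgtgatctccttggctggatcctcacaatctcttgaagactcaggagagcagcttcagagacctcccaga
H2-Eb1: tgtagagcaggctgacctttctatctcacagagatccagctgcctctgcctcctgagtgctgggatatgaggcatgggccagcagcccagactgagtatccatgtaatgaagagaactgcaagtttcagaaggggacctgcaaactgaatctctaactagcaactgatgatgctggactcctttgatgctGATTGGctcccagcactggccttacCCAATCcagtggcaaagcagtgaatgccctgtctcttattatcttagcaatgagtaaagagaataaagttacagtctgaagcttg
GATTGG begins 49 bases before the start of H2-Aa. In H2-Eb1 a match begins 60 bases before the start and another 35 bases before it. The letters were found in 5292 of all 32851 windows (16.1%) and in a window of each of the 4 class II genes looked at, H2-Aa, H2-Eb1, H2-DMa and H2-DMb1. Another window of H2-DMa held no match, and no window was available for H2-Ab1. A match of letters is a description and not evidence of binding, and no promoter activity was measured here.

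The libraries held 136004367 UMIs (Cre-) and 146758812 UMIs (PHDTiEC) over all barcodes, and the class summed to 10675124 and 12325123 UMIs. Members had medians of 6417 and 6741.5 UMIs and of 3.28% and 2.29% mitochondrial transcripts. The 2 libraries shared 27 kept barcode sequences, none of which was a member in both. RNA free in solution, read from barcodes with fewer than 100 UMIs, differed between the libraries. Red blood cell transcripts were 103 CPM (UMIs of a gene or list scaled to a total of 1e+06) in the free RNA of Cre- and 594 CPM in that of PHDTiEC, and 8.15 and 95.7 CPM in the members. Fibroblast and mural cell markers stood at 203 and 303 CPM in members, proximal tubule markers at 139 and 183 CPM and distal nephron markers at 357 and 350 CPM. None of these lists exceeded its level in the free RNA of its library. Dendritic cell markers did, with 779 CPM in Cre- members and 538 CPM in PHDTiEC members against 136 and 130 CPM in free RNA. Monocyte markers were likewise above it, at 742 and 635 CPM against 371 and 377 CPM. The part of these lists in the differences between the libraries was not tested.

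The defining complement genes were near universal. C1qa was present in 99.9% of Cre- members at 5601 CPM and in 99.6% of PHDTiEC members at 5415 CPM. T cell receptor barcodes, which should lack C1qa, carried it in 12.8% and 13.5% of barcodes at 48.1 and 65.6 CPM, which is taken here as the background level. Free RNA and doublets as its source were not told apart. Few members sat near the C1q limit, with 13 and 19 between 30 and 35 per 10000 and 12 and 18 barcodes that met every other limit between 25 and 30. The C1q level had medians of 153 and 152 per 10000. The limit on Mrc1 and Ccl8 cut closer, since 265 Cre- members (17.8%) and 249 PHDTiEC members (15.4%) entered on 1 UMI of Mrc1 or Ccl8. Just inside the injury limit, 54 and 58 C1q-high Mrc1 or Ccl8 barcodes had 2 to 3 UMIs of Gpnmb, Arg1 and Mmp12 per 10000, and 32 and 50 barcodes just outside it had 3 to 4.

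Among the markers that the rule did not use, Cx3cr1, the fractalkine receptor, was found in 91.2% of Cre- and 93.9% of PHDTiEC members. Csf1r, the receptor that macrophages need for survival, was found in 96.7% and 97.2%. Adgre1, which encodes F4/80, was found in 84.9% at 386 CPM and in 89.2% at 471 CPM. Fcrls, an Fc receptor-like gene of microglia and other resident macrophages, differed more, with 71.6% of members (69.2 to 73.9%) at 548 CPM in Cre- and 83.0% (81.1 to 84.8%) at 680 CPM in PHDTiEC. After each barcode was thinned to 2000 UMIs, leaving out 57 and 62 shallower members, Fcrls stood at 50.4% and 62.7%. The chemokine Ccl12 was present in 51.9% and 54.5% of members. These genes mark the members as macrophages in both libraries.

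Markers of resident and perivascular macrophages were found to unequal extents. Selenop, a selenium carrier, was present in 96.2% and 97.8% of members, Pf4, platelet factor 4, in 60.9% and 59.2%, Stab1, a scavenger receptor, in 54.2% and 62.1%, and Clec10a, a lectin, in 28.2% and 28.6%. Lyve1, a hyaluronan receptor, was found in 0 of 1485 Cre- members and in 3 of 1616 PHDTiEC members (0.186%). A count of 0 read as up to 3 allows a Cre- share with a UMI of up to 0.202%, and the exact interval reaches 0.248%. Neither value limits the share of cells that express Lyve1. Timd4, a receptor for phosphatidylserine on dying cells, was found in 0 and 2 members. Folr2, a folate receptor, was found in 5.79% and 6.44%. On the other side, Ly6c2, a gene of inflammatory monocytes, was present in 1.01% and 1.49% of members, Flt3 in 0.606% and 0.124%, and Cd209a in 0.404% and 0.248%. Ccr2, the receptor through which monocytes leave the bone marrow, was present in 70.0% of Cre- and 60.6% of PHDTiEC members. With markers on both sides, the class is named here by its rule, as C1q-high Mrc1 or Ccl8 macrophages.

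**Figure D1:**
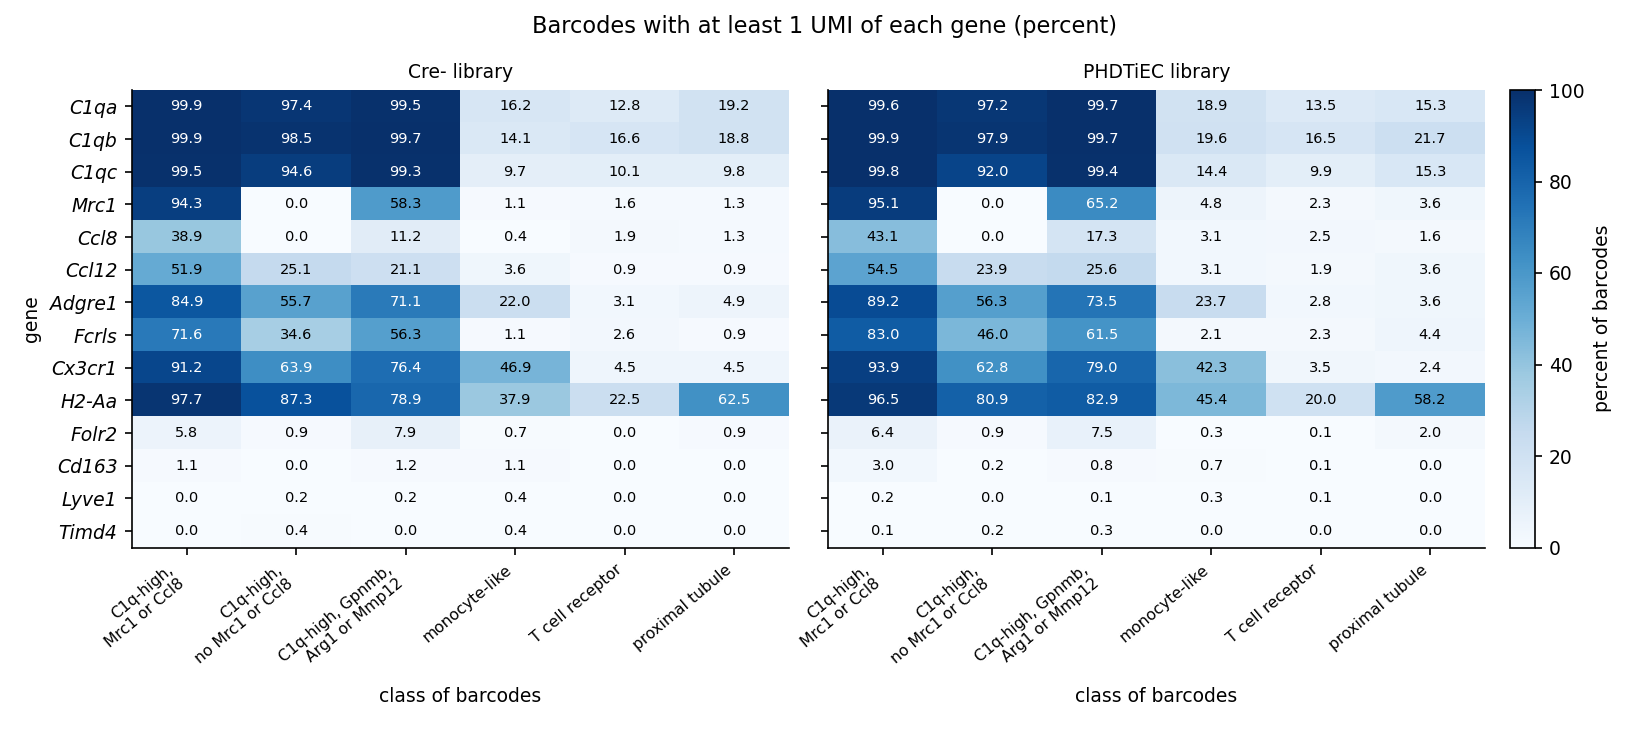
Percent of barcodes with at least 1 UMI of each of 14 genes (colour and printed value) in the C1q-high Mrc1 or Ccl8 macrophages and 5 other classes, one panel per library. C1qa, Cx3cr1 and H2-Aa are in over 90% of the macrophages of both libraries, while Lyve1 and Timd4 are at or near 0.

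The class took a similar share of both libraries. It made up 17.5% of kept barcodes in Cre- (16.7 to 18.4%) and 17.5% in PHDTiEC (16.7 to 18.3%), a ratio of 0.998 (0.930 to 1.07). Of barcodes with the leukocyte gene Ptprc it made up 29.5% and 29.7%. Of all 2674 and 2858 C1q-high barcodes it made up 55.5% and 56.5%, with a ratio of 1.02 (0.948 to 1.09). These are shares of barcodes after dissociation and not cell numbers per kidney.

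Within the class, most members carried Mrc1 without Ccl8. They were 908 Cre- members (61.1%) and 920 PHDTiEC members (56.9%). Members with both genes were 493 (33.2%, 30.8 to 35.7%) and 617 (38.2%, 35.8 to 40.6%), and members with Ccl8 alone were 84 (5.66%) and 79 (4.89%). Ccl8 was concentrated in few barcodes, since the 148 Cre- and 162 PHDTiEC members with most of it held 80.55% and 80.01% of its UMIs. The highest barcodes held 272 and 393 Ccl8 UMIs.

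Ccl8-positive and Ccl8-negative members differed in further genes in the same way in both libraries. Of 9393 genes with enough UMIs, 107 (1.14%) were at least 2-fold higher and 65 (0.692%) at least 2-fold lower in Ccl8-positive members of both libraries. F13a1, which encodes the A chain of coagulation factor XIII, was 69.4 against 13.2 CPM in Cre- and 86.6 against 14.3 CPM in PHDTiEC, log2 ratios of 2.39 and 2.60. Cbr2, a carbonyl reductase found in resident macrophages, had log2 ratios of 2.32 and 2.21. C4b, complement component 4, stood at 158 against 64.4 CPM and at 187 against 47.2 CPM. Cd4, which mouse macrophages can express, had 2.03 and 1.75. The scavenger receptors Stab1 (0.81 and 0.92) and Cd163 (3.68 and 2.65) and Igf1 (0.87 and 0.88), an insulin-like growth factor, were higher too, and Ccr2 was lower (-0.76 and -0.82). Cd163 rested on few UMIs, 18 against 2 in Cre- and 67 against 14 in PHDTiEC. Cxcl9, a chemokine induced by interferon gamma, had 1.76 and 1.34. Since every Ccl8-negative member was required to hold Mrc1, the Mrc1 level is not compared between them.

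The small Folr2-positive fraction, 86 Cre- and 104 PHDTiEC members, was high in F13a1 and Cbr2 as well. Relative to Folr2-negative members, Cbr2 had log2 ratios of 4.22 and 3.18, F13a1 of 3.41 and 2.86 and Cd163 of 4.32 and 3.73. All members together held only 20 and 81 UMIs of Cd163. Il10, an anti-inflammatory cytokine, had 1.62 and 1.93. H2-Aa was lower (-0.84 and -0.85), as was Ccr2 (-1.12 and -1.39). Of 9320 genes, 187 (2.01%) were at least 2-fold higher and 285 (3.06%) at least 2-fold lower in both libraries. These subsets share their libraries with the rest, and the order of their ratios is a description.

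The contrast between the genotypes was small for most genes. Of 9715 genes with at least 100 UMIs in the class, 218 were at least 1.5-fold higher in PHDTiEC (2.24% of genes) and 113 at least 1.5-fold lower (1.16%), and the median log2 ratio was 0.06. Below, a gene past 1.5-fold means 1 with at least 100 UMIs over both libraries unless stated. Sparser genes of a list enter only its median and its counts above and below 0. Over all genes with at least 10 UMIs the median was also 0.06, so most genes lay above 0 whatever their list. The share of all genes above 0 was not counted. The split of 65.9% higher among these calls became 55.5% under edgeR's TMM scaling, which gave 172 higher and 138 lower and moved the median to 0.02. It became 54.9% when barcodes with markers of other lineages were left out (146 and 120), of which 95 and 52 were among the main calls. Of the genes of the rule, Arg1 alone passed 1.5-fold, with a log2 ratio of 0.72 at 5.81 and 9.57 CPM. Log2 ratios of the others were -0.05 for C1qa, -0.09 for C1qb and -0.00 for C1qc, 0.18 for Mrc1 and 0.41 for Ccl8. Gpnmb had 0.10, Mmp12 -0.25, Mki67 0.07 and Top2a 0.24. Of the marker genes outside the rule, Ccl12 had 0.18, Adgre1 0.29 and Fcrls 0.31.

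The transcripts of the floxed genes were low and were not lower in PHDTiEC. Egln1 (Phd2) had 266 UMIs in Cre- and 355 in PHDTiEC, with a log2 ratio of 0.21 (-0.02 to 0.44). Egln2 (Phd1) had 346 and 463 UMIs, with 0.21 (0.01 to 0.42). Egln3 (Phd3) had 16 and 32 UMIs, with 0.79 (-0.12 to 1.76), a ratio whose direction turned when barcodes with other-lineage markers were left out (-0.37) or barcodes were thinned (-0.76). Counts summed per gene do not show whether a floxed exon was removed, so they do not check the genotype labels.

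The formyl peptide receptors Fpr1 and Fpr2 stood out among the higher genes. They are G protein-coupled receptors of phagocytes that sense formylated peptides of bacteria and mitochondria, and they lie next to each other on chromosome 17, Fpr1 at chr17:17876471-17883940 and Fpr2 at chr17:17887824-17893952 (GRCm38). Fpr1 had 68 UMIs in 49 Cre- members and 316 UMIs in 214 PHDTiEC members, 6.37 and 25.6 CPM, with a log2 ratio of 2.01 (1.63 to 2.41). Fpr2 had 113 UMIs in 82 members and 325 UMIs in 213 members, with a log2 ratio of 1.32 (1.00 to 1.64). At least 1 of the receptors was found in 8.08% of Cre- members (6.74 to 9.59%) and in 22.1% of PHDTiEC members (20.1 to 24.2%), and both in 11 and 70 members. No barcode held more than 3 and 7 UMIs of Fpr1 or 4 and 8 UMIs of Fpr2, so the ratio did not rest on a few barcodes.

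Neutrophils also express these receptors, and their marker list stood at 190 CPM in Cre- and 168 CPM in PHDTiEC members. In the Fpr1-positive members it stood at 592 and 314 CPM, and in the Fpr1-negative members at 174 and 146 CPM, so it was higher beside Fpr1 in both libraries and was lower in PHDTiEC throughout. Fpr1 was found in 0.347% and 0.145% of T cell receptor barcodes. Without the barcodes that carried other-lineage markers, neutrophil markers included, the log2 ratios were 2.05 for Fpr1 and 1.33 for Fpr2. At 2000 UMIs per barcode Fpr1 was seen in 0.840% and 5.47% of members. Over all 14 alternatives Fpr1 ranged from 1.82 to 3.02 and Fpr2 from 1.10 to 1.46. By subset, Fpr1 had a log2 ratio of 2.82 in members with Mrc1 alone and 1.38 in members with Mrc1 and Ccl8, and that difference was not tested.

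Further genes with high ratios had varied known roles. Irak3, a brake on Toll-like receptor signalling, had 181 and 436 UMIs and a log2 ratio of 1.06 (0.81 to 1.32). Tsc22d3, the glucocorticoid-induced leucine zipper, chosen after its value was seen, had 631 and 1487 UMIs and a log2 ratio of 1.03 (0.89 to 1.17). Lyz1, a lysozyme with a close copy in Lyz2, had 312 and 853 UMIs and a ratio of 1.24, whereas Lyz2 had 0.24, and reads could be divided between the copies. Cd163, the receptor for haemoglobin bound to haptoglobin, rested on 20 UMIs in 16 Cre- members and 81 UMIs in 49 PHDTiEC members, with a log2 ratio of 1.81 (1.09 to 2.60). Serpina3f (1.56), a serine protease inhibitor, Gm15987 (1.42), Susd1 (1.40) and Hdgfl3 (1.13) complete this end of the range apart from Ifi213, described below, and a pair that depended on other lineages. That pair is Ccdc80 and Mgll, at 1.18 each, which fell to 0.12 and 0.32 when barcodes with other-lineage markers were left out.

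**Figure D2:**
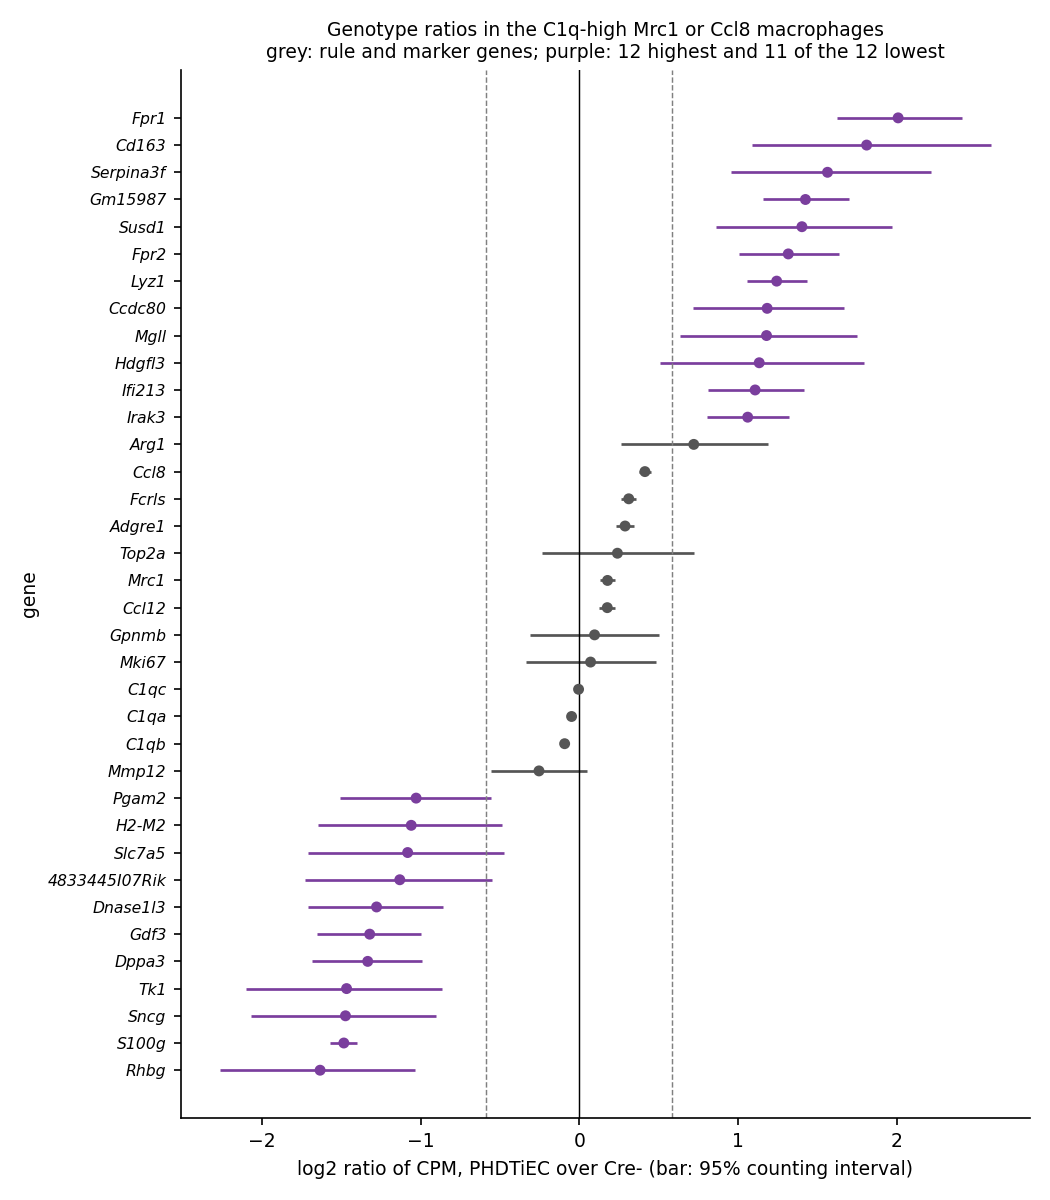
Log2 ratio PHDTiEC over Cre- (x axis) with exact 95% counting intervals, 1 library per genotype, for the genes of the rule and the markers (grey) and the 12 highest and 11 of the 12 lowest genes (purple), with dashed lines at 1.5-fold. Fpr1 is highest at 2.01, and Ifi202b, at -8.35, is not plotted. Of the genes of the rule, Arg1 lies past 1.5-fold at 0.72 and the others lie within it.

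At the low end stood Ifi202b, an interferon-inducible gene of the DNA-sensing p200 family. It had 567 UMIs in 402 Cre- members and 2 UMIs in 2 PHDTiEC members, with a log2 ratio of -8.35 (-11.40 to -6.49). Its near absence extended beyond the class, since the C1q-high barcodes without Mrc1 or Ccl8 held 83 and 0 UMIs and the injury-associated macrophages 198 and 0 UMIs. Barcodes with Ly6c2, Plac8 or Chil3 held 76 and 0 UMIs, and the free RNA 39 and 1. Ifi202b lies on chromosome 1 at chr1:173962568-173982744, beside other genes of its family. Whether reads were divided between similar copies was not tested.

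Its neighbours were examined after this value was seen. Of 49 genes with at least 100 UMIs from Fcgr4 (start 171018920) to Ifi202b on chromosome 1, 6 passed 1.5-fold (12.2%), against 3.41% of all genes. Without Ifi202b itself, which prompted the look, 5 of 48 passed (10.4%). Slamf7, a receptor of the SLAM family on activated leukocytes, had 933 and 2097 UMIs and a log2 ratio of 0.96 (0.85 to 1.07). Ifi213 had 129 and 321 UMIs and 1.11, Ifi208 had 0.96 and Ifi206 had 0.91. Kcnj10, a potassium channel gene, was lower at -0.81. In the injury-associated macrophages the values were 1.20 for Slamf7, 1.37 for Ifi213, 1.42 for Ifi208, 1.74 for Ifi206 and -1.25 for Kcnj10, each in the same direction. Genotype effects on these genes and a difference between the mice in this stretch of chromosome cannot be told apart with 1 library per genotype.

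The rest of the 12 lowest genes had varied known roles. S100g, a calcium-binding protein of the distal nephron, had 3881 and 1602 UMIs and a log2 ratio of -1.48. The highest barcode held 18.5% of the UMIs of its library, and the free RNA held 1920 and 1218 CPM of it. Rhbg (-1.63), an ammonium transporter of the collecting duct, and Sncg (-1.47) likewise had 22.1% and 19.1% in 1 barcode, and had -0.90 and -0.52 when barcodes with other-lineage markers were left out. Dppa3 (-1.33, 227 and 104 UMIs), Gdf3 (-1.32, 23.5 and 9.41 CPM), a TGF-beta family ligand, Dnase1l3 (-1.28), a nuclease of macrophages and dendritic cells, and Tk1 (-1.47, but -0.43 after thinning), a thymidine kinase of dividing cells, had a smaller part in 1 barcode. 4833445I07Rik (-1.13), Slc7a5 (-1.08), H2-M2 (-1.06) and Pgam2 (-1.03) complete this end. H2-M2 moved to 0.00 when no limit was set on Gpnmb, Arg1 and Mmp12.

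The MHC class II genes were lower together in PHDTiEC, mostly by less than 1.5-fold. Of the 16 genes of the presentation list with at least 10 UMIs, 13 had log2 ratios below 0, with a median of -0.30 against 0.06 over all genes, and 1 passed 1.5-fold. H2-Ab1 had 8458 and 6380 CPM with a ratio of -0.41 (-0.42 to -0.39), H2-Eb1 9081 and 6856 CPM with -0.41, H2-Aa 8485 and 6818 CPM with -0.32, and the invariant chain Cd74 -0.27. Ciita, the transactivator of class II transcription, had 1195 and 1119 UMIs and -0.30 (-0.42 to -0.18). The peptide loaders H2-DMa and H2-DMb1 had -0.29 and -0.25. H2-DMb2, with 112 and 83 UMIs, had -0.64, or -0.30 after thinning, whereas the protease Ctss had 0.15 and the costimulatory receptor Cd86 had 0.08. The list summed to 52570 and 42922 CPM. Its median lay between -0.34 and -0.26 in all 15 alternatives. The MHC class I list, by contrast, had a median of -0.04, with 7 of 17 genes above 0 and none past 1.5-fold.

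Per barcode, the class II level was spread wide. H2-Aa, H2-Ab1, H2-Eb1 and Cd74 together had a median of 553 UMIs per 10000 in Cre- and 445 in PHDTiEC, and the lowest 10 percent of members lay under 186 and 68.0. Barcodes under 100 per 10000, a limit set after the distribution was seen, were 88 of 1485 Cre- members (5.93%, 4.78 to 7.25%) and 201 of 1616 PHDTiEC members (12.4%, 10.9 to 14.1%), a ratio of 2.10 (1.63 to 2.73). Near the limit, 11 and 24 barcodes lay between 80 and 100 and 9 and 30 between 100 and 120. Low barcodes were deeper, with medians of 8158 and 8281 UMIs against 6330 and 6621 in the rest. Of the low barcodes 7.95% and 11.4% had over 20000 UMIs, against 1.65% and 1.34% of the rest. Without members over 20000 UMIs the shares were 5.57% and 11.3% and the ratio 2.03 (1.55 to 2.68). The part of doublets in these values was not tested. Low barcodes more often carried other-lineage markers, 14.8% and 19.4% of them against 7.59% and 6.08% of the rest. With those barcodes left out, the shares were 5.49% and 10.9% and the ratio 1.98 (1.496 to 2.638). Dendritic cell and monocyte markers are not among those lineages. With the 469 Cre- and 338 PHDTiEC members with at least 10 per 10000 of dendritic cell markers left out instead, the shares were 8.46% and 15.1% and the ratio 1.78 (1.38 to 2.33). With all of these lists left out together, 671 and 903 members remained, with 9.84% and 15.4% and a ratio of 1.56 (1.16 to 2.13). H2-Ab1 had a log2 ratio of -0.42 without the dendritic marker barcodes and -0.38 without all of them. The shift was not limited to the low barcodes, since among members with at least 100 per 10000 H2-Ab1 had -0.25, H2-Eb1 -0.25 and H2-Aa -0.16.

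**Figure D3:**
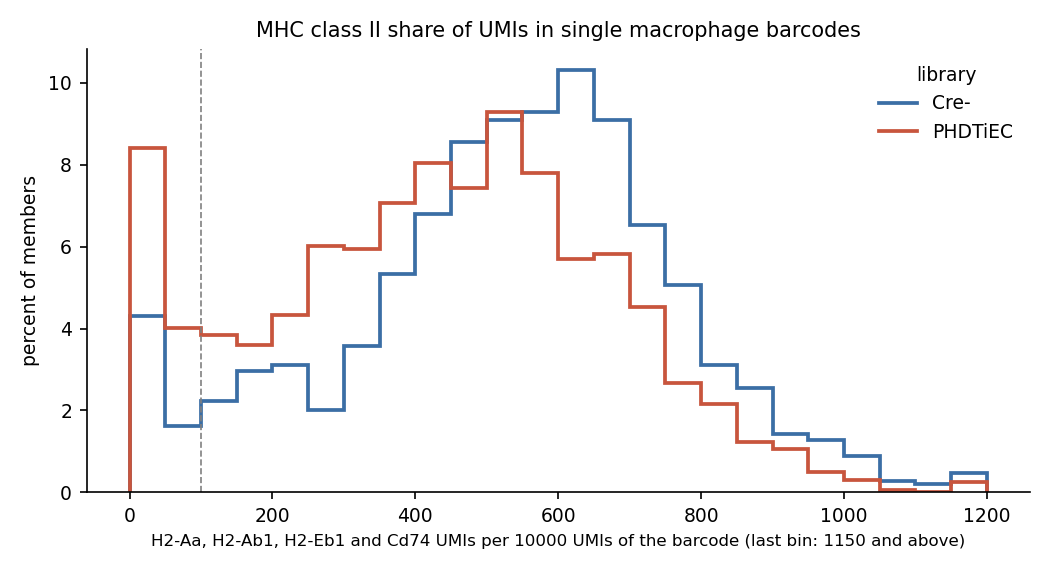
Distribution of MHC class II UMIs per 10000 UMIs over single member barcodes (x axis), as percent of members in each library (y axis), with a dashed line at 100. The PHDTiEC library has more barcodes below the line, 12.4% against 5.93%, and a lower median, 445 against 553.

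The class II-low members differed from the rest in further genes in the same way in both libraries, read without barcodes that carried other-lineage markers. Genes used for the split differ by construction and are left aside. F13a1 stood at 210 against 26.3 CPM in Cre- and 158 against 33.1 CPM in PHDTiEC, log2 ratios of 3.00 and 2.26 over the rest. Folr2 had 2.35 and 2.19, Cbr2 2.85 and 1.79, and the synaptic vesicle gene Syngr1 3.93 and 2.89. Ctsd, the lysosomal protease cathepsin D, had 2922 against 645 CPM and 3005 against 791 CPM. Spp1 (1.78 and 2.26), which encodes osteopontin, and the fatty acid-binding protein Fabp5 (2.15 and 2.24) were higher too. Fabp5 stood at 437 and 578 CPM and Spp1 at 3564 and 2894 CPM in class II-low members. In the injury-associated macrophages, with none left out, Fabp5 had 1752 and 2205 CPM and Spp1 6593 and 4698 CPM. F13a1 and Cbr2 were also higher in the Ccl8-positive and the Folr2-positive members, as given above. The pattern is therefore not particular to class II-low members. Il1b (-1.09 and -1.55) and the C-type lectin Clec4b1 (-3.58 and -2.15) were lower. In all members, with none left out, Ccr2 was 81.8 CPM in class II-low and 634 CPM in other Cre- members, and 95.8 and 554 CPM in PHDTiEC.

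Chemokine genes did not move as a group. The list of 22 had a median of -0.01, with 10 above and 12 below 0. Ccl7 had 2033 and 3563 UMIs and a log2 ratio of 0.60 (0.52 to 0.68), Ccl6 had 0.52, Ccl2, the main ligand of Ccr2, had 0.26, and the macrophage inflammatory proteins Ccl3 and Ccl4 had -0.01 and -0.03. Ccl5, a chemokine for T cells and monocytes, had 1394 and 945 UMIs and -0.77 (-0.89 to -0.65), in 12.2% and 12.3% of members. Of its Cre- UMIs 21.7% lay in 1 barcode, and without the barcode with most of it in each library the ratio was -0.51, short of 1.5-fold. T cell receptor barcodes, which hold more Ccl5, had 2810 and 1408 CPM, and their part in the ratio was not tested. Cxcl13, a B cell chemokine, had 33 and 133 UMIs in 5 and 7 members, and 59.4% of those of PHDTiEC lay in 1 barcode. Among chemokine and migration receptors the median was 0.21, 15 of 20 lay above 0, and 3 passed 1.5-fold upward. These were Fpr1, Fpr2 and Flt1 (1.06, 66 and 159 UMIs), a VEGF receptor that also stands in the endothelial marker list. Itgam, the integrin chain CD11b, had 0.57, and Ccr2 had -0.32.

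Tissue-resident and perivascular genes were mostly above 0. The median was 0.25 against 0.06 over all genes, with 15 of 17 above 0 and Cd163 alone past 1.5-fold. Stab1 had 0.37, Igf1 0.25, Selenop 0.10 and Pf4 -0.15. Core macrophage genes had a median of 0.14, with 18 of 24 above 0 and none past 1.5-fold. Maf, a transcription factor of tissue macrophages, was among the higher at 0.50 (428 and 607 CPM), and Cd81, a tetraspanin, the lowest at -0.32. The iron and haem list had 13 of 14 genes above 0 and a median of 0.15. Cp, which encodes the ferroxidase ceruloplasmin, had 875 and 1827 UMIs and 0.85, and Hmox1, haem oxygenase 1, had 1376 and 2213 UMIs and 0.48. Red blood cell transcripts in the members moved the same way, as given above, and their part in these values was not tested.

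Of complement genes other than C1q, Serping1, the C1 inhibitor, had 118 and 254 UMIs and 0.90, but -0.34 when C1q was required at 60 per 10000. The complement list had a median of 0.08. Interferon-induced genes had a median of 0.16, with 22 of 29 above 0 and none past 1.5-fold, from -0.32 for Ifit2 to 0.50 for Ifi209. The list does not hold Ifi202b, Ifi206, Ifi208 and Ifi213, described above, which passed it. Inflammatory cytokine and NF-kB genes had a median of -0.05, with Tnf at -0.33, Nlrp3 at -0.23 and Il1b at -0.11. Neither list held a gene past the limit.

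Genes of the hypoxia response, the pathway that the deleted enzymes restrain in endothelium, showed no gene past 1.5-fold in these macrophages. HIF target genes had a median of 0.12, with 16 of 23 above 0. Most of the sparser genes of the list, those with under 100 UMIs, were higher. Adm, which encodes adrenomedullin, had 9 and 26 UMIs (1.32), P4ha2 had 1.07, Egln3 0.79 and Ankrd37 0.40. Ndufa4l2, a mitochondrial protein, was lower, at 49 and 31 UMIs (-0.87). Hmox1 was among the higher, and Hilpda, a lipid droplet protein, was at -0.39 and Vegfa at 0.20. Glycolysis and lactate transport genes had a median of -0.05, with Hk2, hexokinase 2, at 0.48 (1151 and 1854 UMIs), Gapdh at -0.22 and Ldha at 0.03. The oxygen sensors and HIF subunits had a median of 0.21 over 8 genes, with Hif1a at 0.28. Epas1, at -0.26, had 0.90 after thinning. Beside the all-gene median of 0.06 these are small values.

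The other lists lay near the median of all genes. Lipid-associated macrophage genes had a median of -0.01, with Trem2 at 0.08, and Mgll alone passed 1.5-fold. Spp1, at -0.16, had 0.34 after the free RNA profile was subtracted. Lysosome and efferocytosis genes had 0.08, with Ctsd at 0.41 and Mertk, a receptor for dying cells, at 0.40. Growth and repair factors had 0.09, with Hgf at 0.53. Areg, at -0.58, had 1.55 after thinning. Growth signals and transcription factors had 0.07, where Pparg, a nuclear receptor of lipid handling, was the 1 gene past the limit at -0.65 (188 and 138 UMIs), but at -0.27 without the Gpnmb, Arg1 and Mmp12 limit. Immediate early genes, which respond to dissociation, had 0.05, with Ier2 at -0.48 and Hspa1b at 0.37.

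**Figure D4:**
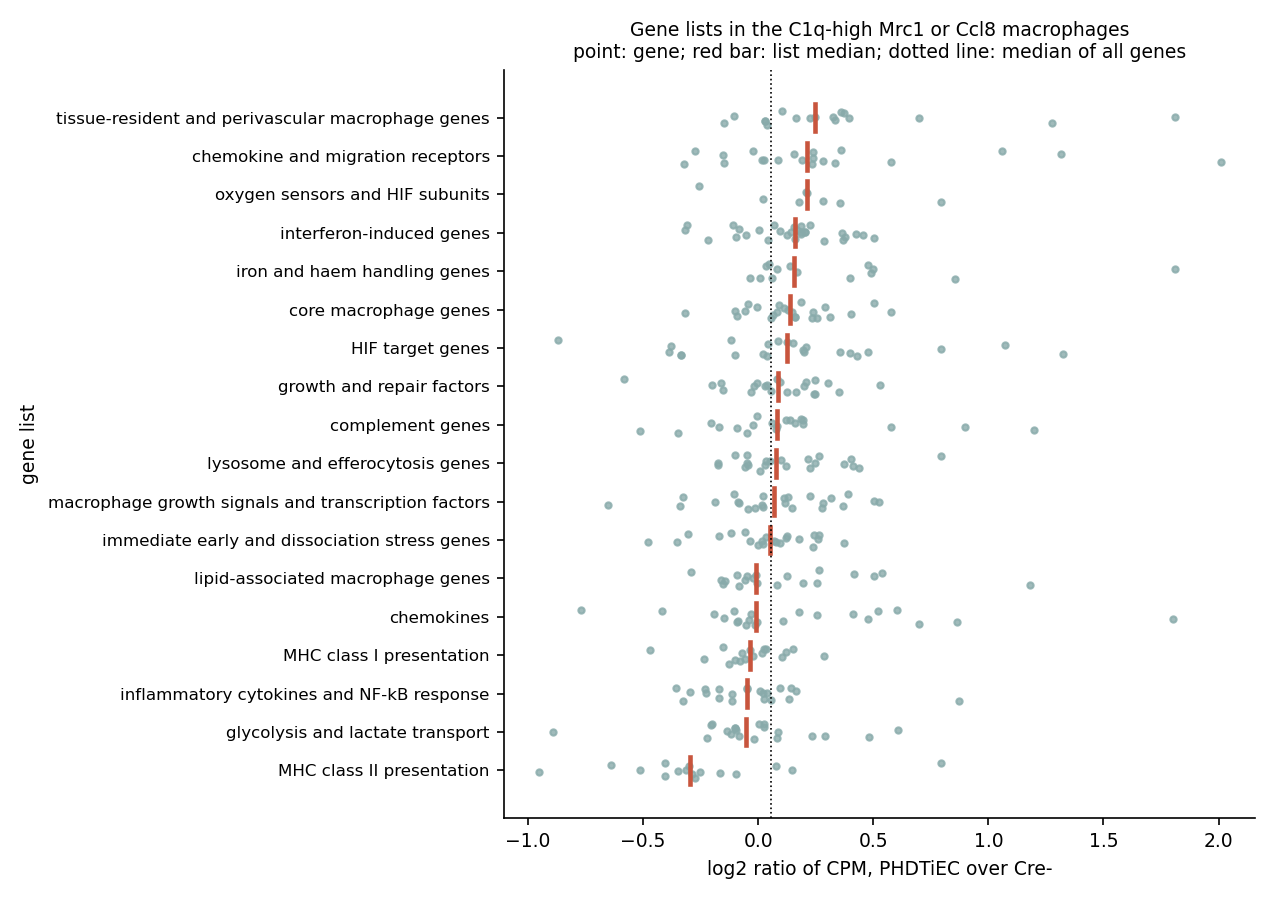
Log2 ratio PHDTiEC over Cre- (x axis) of each gene with at least 10 UMIs in 18 gene lists (rows), where points are genes, red bars are list medians and the dotted line is the median of all genes, with 1 library per genotype. MHC class II presentation has the lowest median, -0.30, and the tissue-resident list the highest, 0.25.

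The genotype ratios were set beside those of the macrophages nearest to the class, which come from the same 2 libraries. The 606 Cre- and 706 PHDTiEC injury-associated macrophages shared the C1q limit but had Gpnmb, Arg1 or Mmp12, and 60.4% and 67.7% of them also held Mrc1 or Ccl8. Of 8514 genes counted in both classes, 166 passed 1.5-fold in the class and 230 in the injury-associated macrophages. In both classes 38 passed it in the same direction and 6 in opposite directions. Ccl7 had a ratio of 1.58 (1.34 to 1.83) there and of 0.60 (0.52 to 0.68) in the class. Ccl12 had 0.93 (0.76 to 1.10) there and 0.18 (0.13 to 0.23) in the class. The share of all genes with intervals this far apart was not counted. Ccl8, at 1.23 there, is a gene of the rule and is not compared. Irak3 had the smaller ratio there, 0.19 against 1.06, and Tsc22d3 too, 0.50 against 1.03. H2-Ab1 had -0.28 there, and -0.34 in the 463 and 435 C1q-high barcodes without Mrc1 or Ccl8, where Fpr1 had 2.39. Fpr1 had 1.67 in the injury-associated macrophages. Fpr2 had 1.26 in the C1q-high barcodes without Mrc1 or Ccl8 and 0.64 (-0.13 to 1.45) in the injury-associated macrophages. In barcodes with Ly6c2, Plac8 or Chil3 both receptors were lower in PHDTiEC. Fpr1 had -1.47 (25 and 11 UMIs) and Fpr2 -1.88 (112 and 37 UMIs) there. Intervals cover counting error only, so these differences between classes were not tested over animals.

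**Figure D5:**
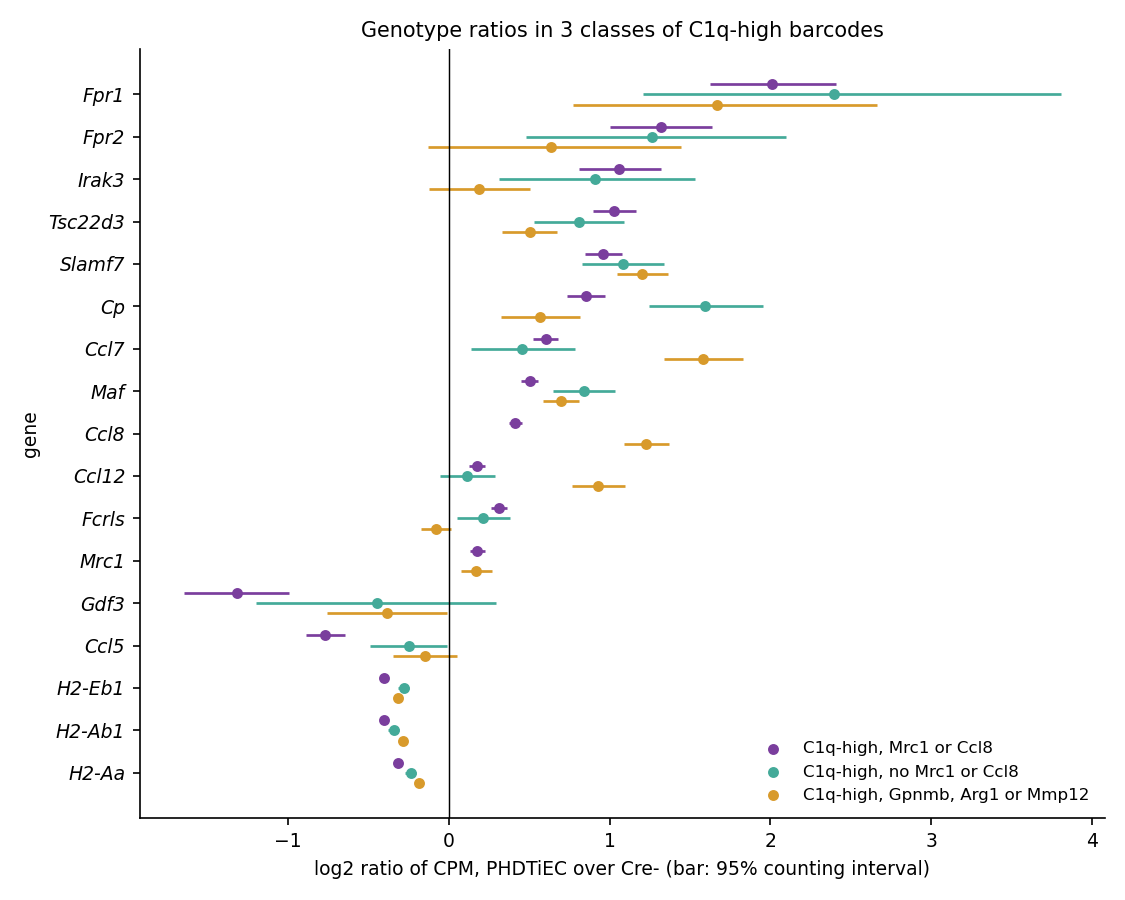
Log2 ratio PHDTiEC over Cre- (x axis) of 17 genes in the C1q-high Mrc1 or Ccl8 macrophages, the C1q-high barcodes without Mrc1 or Ccl8 and the Gpnmb, Arg1 or Mmp12 macrophages, with exact 95% counting intervals and 1 library per genotype. Slamf7 is similar in all 3 (0.96, 1.08 and 1.20), whereas Ccl7 has 1.58 in the Gpnmb, Arg1 or Mmp12 macrophages and 0.60 in the class. Mrc1 and Ccl8 are genes of the rule.

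The members were also set against these classes within each library, first against the injury-associated macrophages. The classes were cut on transcripts of the same barcodes, so these values describe the cut and support nothing. Of 8936 genes, 308 were at least 2-fold higher in members of both libraries (3.45%) and 256 at least 2-fold lower (2.86%). Interferon-induced genes had median log2 ratios of 1.18 in Cre- and 1.09 in PHDTiEC, with 13 of 26 at least 2-fold higher in both. Gm4951 and Iigp1, interferon-inducible GTPases, had 3.38 and 3.96 and 2.94 and 2.66. Spic, a transcription factor of iron-recycling macrophages, had 2.53 and 2.60, and C4b 2.62 and 2.42. MHC class II genes had medians of 0.84 and 0.92. Lipid-associated genes were lower, with medians of -1.31 and -1.27 and 12 of 20 past 2-fold, as were glycolysis genes, with -1.17 and -0.88. Among single genes, Npy (-4.98 and -7.09), Dcstamp (-4.34 and -4.34), a gene of cell fusion, and Atp6v0d2 (-3.66 and -3.76), a proton pump subunit, were among the 10 lowest.

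The C1q-high barcodes without Mrc1 or Ccl8 were compared next. Of 8127 genes, 54 were at least 2-fold higher (0.664%) and 46 at least 2-fold lower (0.566%). Those barcodes had medians of 4447 and 4571 UMIs, below the 6417 and 6741.5 of the members, and a shallower barcode is less likely to show Mrc1 or Ccl8. F13a1 (4.97 and 4.85), Folr2 (3.08 and 3.21), Cbr2 (2.48 and 2.52), the lectin Clec10a (1.97 and 2.47) and Ccl7 (1.81 and 1.96) were higher in members. The tissue-resident list had medians of 1.27 and 1.18, with 7 of 13 at least 2-fold higher. Cxcl5, a neutrophil chemokine (-2.59 and -4.85), Il1a (-2.52 and -1.92) and Trem1 (-1.86 and -2.16) were lower.

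Barcodes with Ly6c2, Plac8 or Chil3, genes of monocytes, were the last comparison. Of 8574 genes, 464 were at least 2-fold higher in members (5.41%) and 1073 lower (12.5%). Core macrophage genes were higher in 21 of 24 cases, with medians of 2.70 and 2.70. The genes lowest in members included Siglech of plasmacytoid dendritic cells, Ace of patrolling monocytes and Krt18 and Foxi1 of epithelium, so these barcodes were not all monocytes and are named by their genes.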

How the data were processed

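Cells of injured kidneys were sequenced on the 10x Chromium platform by the authors, who aligned reads to mm10 with Cell Ranger (version 4 by the file headers) and deposited unfiltered UMI counts per gene and barcode, not normalized, with 1 matrix for each of the 2 libraries. Each matrix listed 6794880 barcodes and 32285 genes. Kept barcodes had 500 to 100000 UMIs, at least 200 genes, at most 50% mitochondrial transcripts and a complexity (log10 of genes over log10 of UMIs) no lower than 0.8, which left 8468 and 9233. Doublets were not called, and barcodes with at least 10 UMIs per 10000 of other-lineage markers (lymphocyte, neutrophil, tubule, endothelial, fibroblast and mural or red blood cell, but not monocyte or dendritic cell) or with over 20000 UMIs were left out as alternatives. Leaving out dendritic cell and monocyte markers was added after the data were seen.

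The members, their rule and all gene lists were chosen with earlier results of these data known, and support nothing by being chosen. Per library, counts were summed over members and scaled to the summed UMIs of the class (CPM), and the log2 ratio PHDTiEC over Cre- was taken with an exact Clopper-Pearson 95% interval. UMI sums had no pseudocount. A gene was called at 1.5-fold with at least 100 UMIs, or at 2-fold in both libraries against another class, and list medians used genes with at least 10 UMIs. No p-value was computed. Named genes were those of the rule and the markers, the floxed genes, in each list the 3 highest and 3 lowest and those past 1.5-fold, the 12 highest and 12 lowest seen in at least 20 barcodes with under 25% of UMIs in 1 barcode and outside technical and other-lineage rows, and the 10 highest and lowest against each class. Other genes given are members of the lists. Tsc22d3, Ifi206, Ifi208 and Kcnj10, the subset genes and the class II limit were chosen after values were seen.

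Gene coordinates are those of GENCODE vM21 (GRCm38, the assembly of mm10). The scripts were tested on simulated counts, with Python 3.11.15, NumPy 2.4.6, SciPy 1.17.1, pandas 2.3.3, and edgeR 4.0.16 in R 4.3.3 for the TMM factors alone. Class totals of 10675124 and 12325123 UMIs set the precision, and a count of 0 was read as up to 3 counts. Some results are not reported here.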

Additional observations from a re-analysis of the deposited data

Results flagged for a closer look

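S100g, a calcium-binding protein of the distal nephron, had a log2 ratio PHDTiEC over Cre- of -1.484 in the C1q-high Mrc1 or Ccl8 macrophages and of 0.62 in the Gpnmb, Arg1 or Mmp12 macrophages. It was marked because both classes passed 1.5-fold in opposite directions, and the difference was not tested, as there was 1 library per genotype. The members held 3881 and 1602 UMIs of it, and the highest barcode held 18.5% of those of the Cre- library. Free RNA held 1920 CPM in Cre- and 1218 CPM in PHDTiEC, and its part in the ratio was not tested.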

How the results depend on the processing

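No paired analysis was possible because each genotype had 1 library, which also means that no library could be left out. The share of the class kept a ratio between 0.9798 and 1.04 in every alternative. The counts at 1.5-fold depended on the settings. Thinning barcodes to 2000 UMIs gave 54 lower genes, and averaging over barcodes gave 196. Subtracting the free RNA profile gave 388 higher and 310 lower, a minimum of 10 UMIs gave 1069 and 902, and no minimum gave 1688 and 1626. Fewer or more genes were tested under the minimums by construction, and for the others the cause was not tested. Of the 18 list medians, 3 moved past the limit set for them. The chemokine median was 0.0854 when Mrc1 and Ccl8 were required at 2 UMIs, the immediate early median was 0.000684 without the Gpnmb, Arg1 and Mmp12 limit and 0.146 after thinning, and the inflammatory median was 0.0913 after thinning. Of 136 named genes, 27 had the other sign under at least 1 alternative, among them Areg, Epas1, Spp1, Csf1 and Egln1. Of the 34 with a ratio past 1.5-fold, 13 fell short of it under at least 1 alternative and 3 turned. Those 3 were Serping1 (-0.338 at C1q of 60 per 10000), H2-M2 (0.0043 without the Gpnmb, Arg1 and Mmp12 limit) and Egln3 (-0.37 without other-lineage barcodes and -0.76 after thinning). Leaving out the barcode with most UMIs of each gene, or members over 20000 UMIs, were alternatives chosen after seeing the data, and they gave 245 higher and 106 lower, and 172 and 134. Genes with few UMIs, such as Cd163 and Egln3, have wide counting intervals.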
